A study of Mus musculus with 2 samples.

Results

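The Asb, Klhl and Kbtbd genes encode adaptor proteins that pick the targets of cullin ubiquitin ligases. Protein-coding genes whose symbol is Asb, Klhl or Kbtbd followed only by a number were taken from the deposited annotation, which gave 63 genes of 22015 protein-coding genes outside the mitochondrial genome and of 55536 annotated genes in all. They comprised 18 Asb, 36 Klhl and 9 Kbtbd genes. Total RNA had been sequenced from the gastrocnemius, a large calf muscle, of 2 male B6CASTF1/J mice (the F1 hybrid of C57BL/6J and CAST) at 4 days of age, 1 library per animal, each made from 300 ng RNA to which ERCC spike-in RNA was added. The 2 libraries are biological replicates 1 and 2 of the only group, for which the labels name no treatment or mutation. The labels number the animals separately but give both the same donor identifier. Annotated genes held 35281187 expected counts in replicate 1 and 32301531 in replicate 2.

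A cullin ligase joins a catalytic RING protein to a cullin scaffold, and the adaptor at the other end of the cullin binds the protein to be ubiquitinated. Asb proteins bind their targets through ankyrin repeats and reach cullin 5 through a SOCS box and the elongin B and C pair. Klhl and Kbtbd proteins bind cullin 3 directly through a BTB domain and bind targets through kelch repeats. Several of these adaptors are known as muscle genes: mutations of KLHL40, KLHL41 or KBTBD13 are a cause of nemaline myopathy in humans, and Asb2 targets filamins.

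To describe such members apart, 18 genes known as genes of heart or skeletal muscle were grouped as a muscle list, and the 45 remaining genes are called the other members. The list was Asb2, Asb5, Asb10, Asb11, Asb12, Asb14, Asb15, Asb16, Asb18, Klhl30, Klhl31, Klhl33, Klhl34, Klhl38, Klhl40, Klhl41, Kbtbd12 and Kbtbd13. With 1 group of 2 libraries, an exact two-sided sign-flip test cannot go below p = 0.5, so means are given with their SD and no test between means was made. Levels are TPM, which correct counts for library depth and divide them by length and can therefore be compared between genes.

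The tissue label was checked with 6 skeletal muscle markers, whose summed level reached 40627 TPM in replicate 1 and 37645 in replicate 2. The libraries differed in markers of other tissues. Markers of epidermis and hair follicle (9 genes) summed to 10.7 TPM in replicate 1 and 1039 TPM in replicate 2, and all 9 were lower in replicate 1. Schwann cell markers (4 genes) summed to 319 TPM in replicate 1 and 724 TPM in replicate 2. The 6 fibroblast markers summed to 7636 and 7540 TPM, and the 5 endothelium markers to 216 and 228 TPM, in replicate 1 and replicate 2. The 6 macrophage markers summed to 88.1 TPM in replicate 1 and 100 TPM in replicate 2. Of 4 heart markers, Nppa had no counts in either library, Myl7 had 1 and 0 counts, Tnni3 had 19 and 6 counts, and Myh6, which skeletal muscle can also express, stood at 48.2 and 60.4 TPM in replicate 1 and replicate 2. In a bulk sample, fewer cells of a type and less RNA per cell cannot be told apart.

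Most of the family was detected in the neonatal muscle, and a few members held most of its RNA. A level of 1 TPM or more in both libraries was reached by 52 of the 63 members (82.5%), against 55.2% of protein-coding genes. At 10 TPM or more in both libraries the share was 18 of 63 (28.6%), against 28% of protein-coding genes, and at 50 TPM or more it was 6 members (9.52%), against 5.6%. The family thus stood above the background at the low threshold and near it at 10 TPM. The levels of all members summed to 1084 TPM in replicate 1 and 948 TPM in replicate 2. Klhl41 alone held 23.1% ± 0.306 of that sum (SD, n = 2), the 5 highest members 49.8% ± 0.879 and the 10 highest 69.8% ± 1.31. These TPM come from alignments. In the tables made directly from reads the levels of members were a median of 1.53 times as high, and those of protein-coding genes 1.61 times, so levels are compared within 1 kind of table. That ratio ran from 0.896 to 2.23 over the members with a mean count of 10 or more. The order of members can therefore differ between the 2 kinds.

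**Figure D1:**
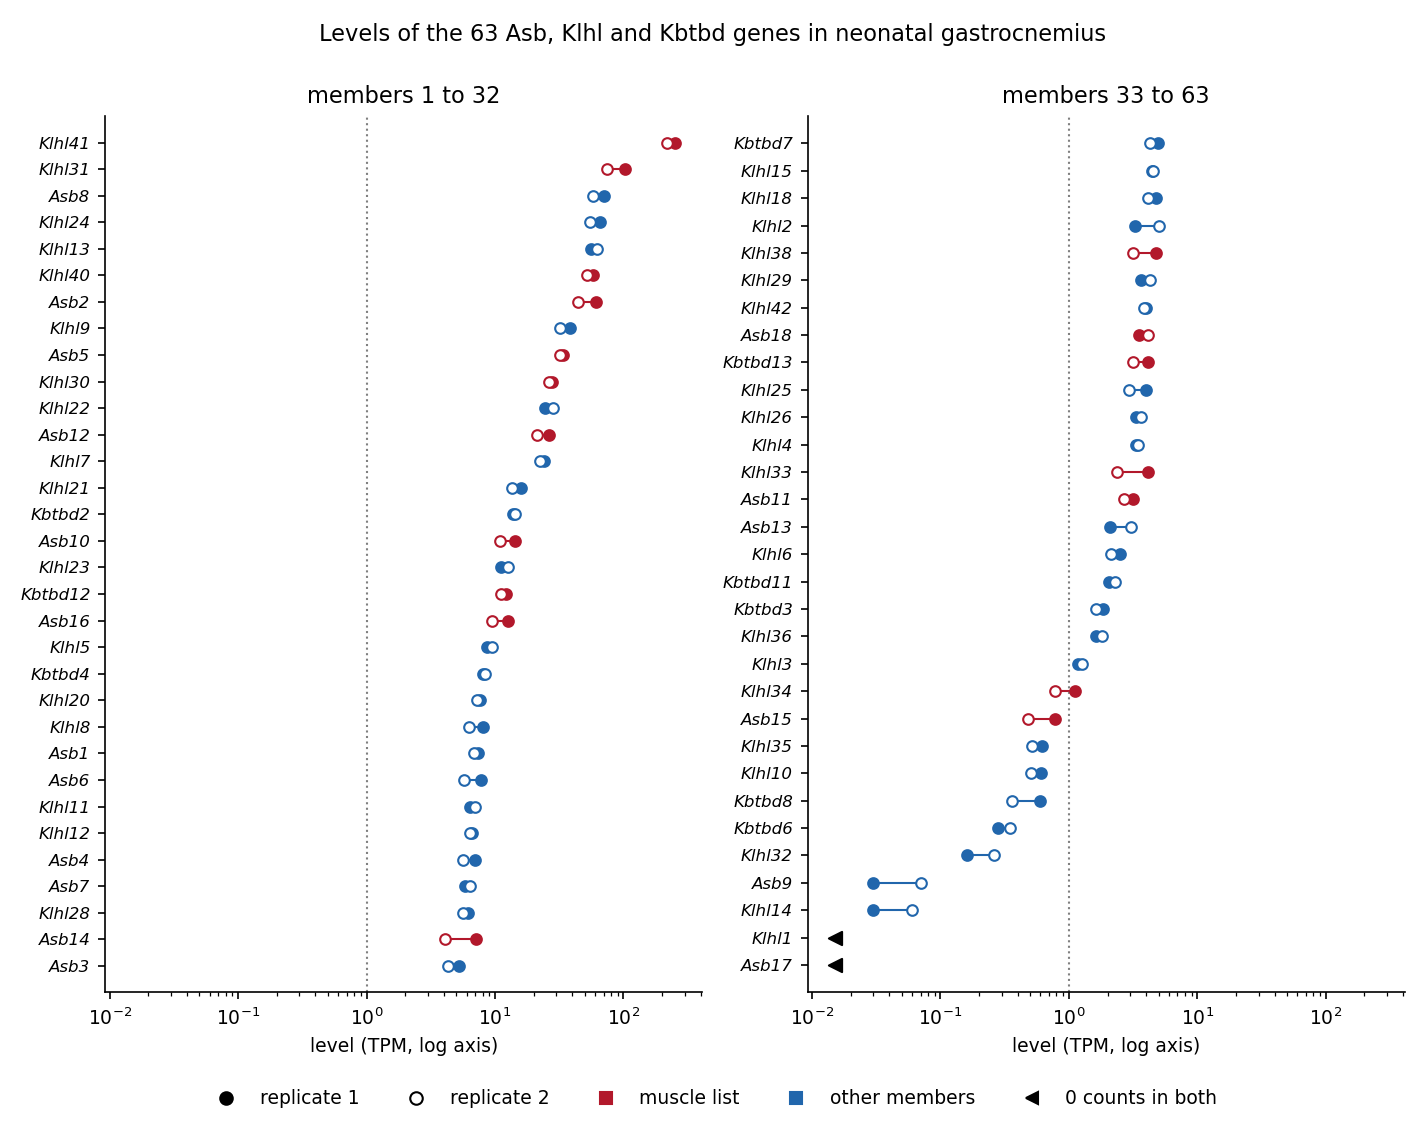
Level in TPM (log axis) of each of the 63 members in replicate 1 (filled circles) and replicate 2 (open circles), in the order of their mean, with muscle-list genes in red, other members in blue, and a dotted line at 1 TPM. Klhl41 lies apart at the top with 253 and 217 TPM, and Klhl1 and Asb17, drawn as triangles, had no counts.

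The median level of the muscle list was above that of the other members in both libraries. It was 12.4 TPM (replicate 1) and 10.2 TPM (replicate 2), against 4.79 and 4.31 TPM for the other members and 2.19 and 2.54 TPM for all protein-coding genes. On the log2(TPM + 0.1) scale the median of the list exceeded that of the other members by 1.35 in replicate 1 and 1.22 in replicate 2, a mean of 1.28 ± 0.10 (SD, n = 2). Without division by length, on depth-scaled counts (CPM), the difference of medians was 0.83. The list made up 6 of the 10 highest members and 10 of the 25 highest, and held 58.1% of the summed TPM in replicate 1 and 54.8% in replicate 2. Because these genes were listed for being known in muscle, the direction of this difference is not independent evidence.

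**Figure D2:**
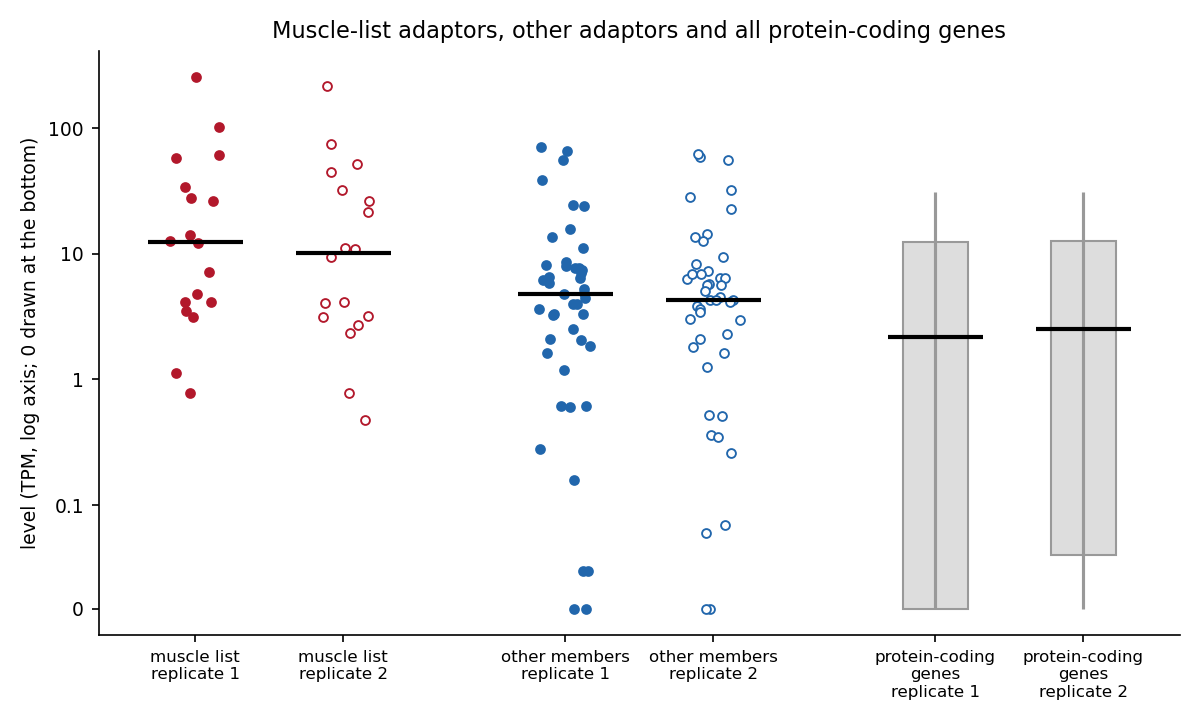
Level in TPM (log axis, with 0 drawn at the bottom) of the 18 muscle-list members and the 45 other members, as points, and of 22015 protein-coding genes, as boxes from the 25th to the 75th percentile with lines to the 10th and 90th. Black bars mark medians, which were 12.4 and 10.2 TPM for the muscle list, 4.79 and 4.31 TPM for the other members, and 2.19 and 2.54 TPM for protein-coding genes, in replicate 1 and replicate 2.

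The cullin 3 adaptors Klhl41 and Klhl31 led the family. Klhl41 (ENSMUSG00000075307.3, chr2:69670120-69684230, plus strand, 6 exons in mm10), which stabilises the thin-filament protein nebulin, had 17970 and 14368 expected counts and stood at 253 TPM in replicate 1 and 217 in replicate 2. It ranked 204 in replicate 1 and 250 in replicate 2 among all protein-coding genes. The lower of its 2 libraries exceeded the higher library of the next gene. That gene was Klhl31 (chr9:77636500-77660127, plus strand), which acts on filamin C in mice, at 102 TPM (replicate 1) and 74.0 TPM (replicate 2). Klhl40 (chr9:121777607-121783818, plus strand), which protects nebulin and leiomodin 3, stood at 58.1 TPM in replicate 1 and 51.6 in replicate 2.

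Members of the Kbtbd family known in muscle were lower than these. Kbtbd13, the third nemaline myopathy gene of the family in humans, stood at 4.16 TPM (replicate 1) and 3.16 TPM (replicate 2), and Kbtbd12 at 12.1 and 11.1 TPM. Klhl30 had 28.0 TPM in replicate 1 and 26.2 TPM in replicate 2. The remaining Klhl genes of the list were low: Klhl38 stood at 4.77 and 3.18 TPM, Klhl33 at 4.11 and 2.36 TPM and Klhl34 at 1.12 and 0.78 TPM, in replicate 1 and replicate 2. Klhl34 was the member just outside the limit of 1 TPM in both libraries, and Klhl3, at 1.18 and 1.26 TPM, the one just inside it.

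Among the cullin 5 adaptors of the list, Asb2 (chr12:103321142-103356001, minus strand) was highest, at 61.5 TPM in replicate 1 and 44.6 in replicate 2. Asb5 (chr8:54529580-54587842, plus strand) followed at 34.1 TPM (replicate 1) and 32.1 TPM (replicate 2), and Asb12, which lies on the X chromosome, at 26.1 and 21.4 TPM. When quantified directly from reads, Asb12 was the higher, at 57 and 48.9 TPM against 50.2 and 44.6 TPM for Asb5. Levels within the list thus spread widely, since Asb10 had 14.2 and 10.9 TPM, Asb16 12.7 and 9.43 TPM and Asb14 7.16 and 4.07 TPM in replicate 1 and replicate 2. Asb18 stood at 3.51 TPM in replicate 1 and 4.16 in replicate 2, and Asb11 at 3.13 and 2.70 TPM. Asb15 was the lowest of the list at 0.78 TPM (replicate 1) and 0.48 TPM (replicate 2). It and Klhl34 were the 2 genes of the list that missed 1 TPM in at least 1 library from alignments. When quantified directly from reads, Klhl34 stood at 1.67 and 1.2 TPM and Asb15 at 1.21 and 0.845 TPM.

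Some adaptors outside the muscle list were about as abundant as Klhl40 and Asb2, though none reached Klhl31 or Klhl41 in either library. Asb8 (chr15:98134637-98165625, minus strand) stood at 70.9 TPM in replicate 1 and 58.3 in replicate 2. Klhl24, whose human form controls the turnover of keratin 14, had 66.0 TPM in replicate 1 and 55.2 TPM in replicate 2. Klhl9 and Klhl13, which work together on Aurora B in dividing human cells, stood at 38.4 and 32.1 TPM and at 55.7 and 62.1 TPM in replicate 1 and replicate 2. Klhl21, the third adaptor linked to Aurora B, was lower at 15.8 TPM (replicate 1) and 13.6 TPM (replicate 2). Klhl22, which targets the mitotic kinase PLK1 in human cells, had 24.6 TPM in replicate 1 and 28.3 TPM in replicate 2, and Klhl7 had 24.1 and 22.6 TPM.

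Below these, Kbtbd2, which controls the regulatory subunit of phosphoinositide 3-kinase in insulin signalling, stood at 13.7 TPM in replicate 1 and 14.4 in replicate 2, and Klhl23 at 11.1 and 12.6 TPM. The other members of the 25 highest were Klhl5 at 8.59 and 9.40 TPM, Kbtbd4 at 8.01 and 8.35 TPM, Klhl20 at 7.71 and 7.30 TPM, Klhl8 at 8.10 and 6.31 TPM, Asb1 at 7.39 and 6.91 TPM and Asb6 at 7.72 and 5.72 TPM, in replicate 1 and replicate 2. Neighbours in the order of mean level were often not separated: the ranges over the 2 libraries overlapped in 47 of the 62 pairs of neighbours, and in 16 of the 24 pairs among the 25 highest members. Asb8, Klhl24, Klhl13, Klhl40 and Asb2 formed such a run of overlapping genes, all below Klhl31 and above Klhl9.

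The members not at 1 TPM in both libraries included genes best known from other tissues. Klhl1, a neuronal gene, and Asb17, a testis gene, had no counts in either library in the alignment-based tables. A count of 0 allows 3 counts, which for Klhl1 is 0.0157 TPM in replicate 1 and 0.0168 TPM in replicate 2, and for Asb17 0.0602 and 0.0646 TPM, for counting error in those tables alone. The tables made directly from reads listed Klhl1 at 0.0357 TPM in replicate 1 and 0.0156 in replicate 2, the first of them above that limit, and Asb17 at 0 and 0.0222 TPM. Asb9, an adaptor for creatine kinase B, had 1 and 2 counts, and Klhl14 3 and 6 counts, in replicate 1 and replicate 2. The sperm gene Klhl10 stood at 0.61 TPM (replicate 1) and 0.51 TPM (replicate 2). Klhl35, Kbtbd8, Kbtbd6 and Klhl32 were also below 1 TPM in both libraries. Between these and the 25 highest lay 27 members that reached 1 TPM in both libraries, from Klhl11, at 6.44 and 6.96 TPM, down to Klhl3.

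Related and neighbouring genes differed in level. Klhl41 lies 138 kb from Klhl23 on chromosome 2, and the 2 genes had 253 and 217 TPM against 11.1 and 12.6 TPM in replicate 1 and replicate 2. Klhl24 lies 115 kb from Klhl6, a B-cell gene, which had 2.52 TPM in replicate 1 and 2.11 TPM in replicate 2. Kbtbd7 and Kbtbd6 lie 20.8 kb apart on chromosome 14, and Kbtbd7 was at 4.90 and 4.27 TPM against 0.28 and 0.35 TPM for Kbtbd6. Klhl7 and Asb10, 372 kb apart on chromosome 5, differed less, with 24.1 and 22.6 TPM against 14.2 and 10.9 TPM. On the X chromosome, Asb11 lies 47.2 kb from Asb9, and stood at 3.13 and 2.70 TPM against 0.03 and 0.07 TPM. The 7 X-linked members had medians of 3.34 TPM in replicate 1 and 3.45 TPM in replicate 2, against 5.98 and 5.32 TPM for the 56 autosomal members, and ranged from Asb9 to Klhl13.

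The ligase parts that these adaptors join were present throughout. All 8 genes of the cullin 5 and cullin 2 core and all 7 of the cullin 3 core were at 1 TPM or more in both libraries. Cul5, the scaffold for Asb proteins, stood at 18.8 TPM in replicate 1 and 17.8 in replicate 2, and Cul2 at 18 and 18.6 TPM. Cul3, the scaffold for Klhl and Kbtbd proteins, stood at 55.9 TPM (replicate 1) and 54.3 TPM (replicate 2). The elongin linkers were higher than the cullins they serve, with Elob at 174 and 180 TPM and Eloc at 58.1 and 55.4 TPM in replicate 1 and replicate 2. The shared RING protein gene Rbx1 had 54.8 TPM in replicate 1 and 57.9 TPM in replicate 2, and Rnf7, the RING partner of cullin 5, had 35.6 and 38.9 TPM. Of the conjugating enzymes in the cullin 3 list, Ube2d3 stood at 145 and 148 TPM and Ube2m at 71.5 and 68.8 TPM.

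Summed over many genes, adaptor RNA outweighed the RNA of the single scaffold for both cullins. The median Asb gene, at 7.08 TPM in replicate 1 and 5.66 in replicate 2, was below Cul5. The median Klhl gene, at 4.78 and 4.79 TPM, was below Cul3. The summed TPM of the 18 Asb genes was 14.3 times that of Cul5 in replicate 1 and 12.4 times in replicate 2, a mean of 13.4 ± 1.36 (SD, n = 2). The summed TPM of the 45 Klhl and Kbtbd genes was 14.6 times that of Cul3 in replicate 1 and 13.4 times in replicate 2, a mean of 14.0 ± 0.825. The likeness of the 2 ratios depends on the cullin chosen: set against Cul5 and Cul2 together, the Asb genes gave 7.32 in replicate 1 and 6.06 in replicate 2, a mean of 6.69 ± 0.887. The ratios compare RNA, not protein. All 15 genes of neddylation and adaptor exchange, which switch cullins on and swap their adaptors, were at 1 TPM or more in both libraries, led by Nedd8 at 105 and 104 TPM, Cops6 at 57.7 and 53.0 TPM, Cops2 at 47.5 and 48.2 TPM and Cops4 at 46.4 and 44.1 TPM in replicate 1 and replicate 2.

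Other adaptors for the same cullins were all detected too. Among 14 further BTB adaptors of cullin 3, Spop, whose human form degrades nuclear receptor coactivators, led with 77.9 TPM in replicate 1 and 80.7 TPM in replicate 2. Ivns1abp (50.5 and 47.7 TPM) and Kctd17 (34.8 and 35.3 TPM) came next, and Tnfaip1 stood at 21.5 and 20.9 TPM. The median of the 14 genes was 14.5 TPM in replicate 1 and 13.9 in replicate 2. Among 17 further SOCS box genes, Wsb2 led with 39.1 and 39.0 TPM, followed by Wsb1 at 28.0 and 29.1 TPM, Rab40b at 21.5 and 19.5 TPM and Socs6 at 20.5 and 20.4 TPM. Klhl41 stood above each of these other adaptors in both libraries.

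Of 12 genes for known targets or partners of the adaptors, 11 were at 1 TPM or more in both libraries. Neb, which encodes the nebulin that Klhl40 and Klhl41 stabilise, stood at 990 TPM (replicate 1) and 957 TPM (replicate 2). Des, encoding the intermediate filament desmin, stood at 718 and 662 TPM, Flnc, encoding filamin C, at 200 and 182 TPM and Nrap, a partner of Klhl41, at 142 and 110 TPM in replicate 1 and replicate 2. The exception was Wnk4, a kidney kinase that KLHL3 targets in humans, at 0.34 TPM in replicate 1 and 0.49 in replicate 2. In all, 71 of the 72 genes of these ligase, adaptor and target lists reached 1 TPM in both libraries, against 55.2% of protein-coding genes.

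Within members, 1 transcript usually held most of the gene. Of the 61 members with counts, 12 have a single annotated transcript, among them 7 of the muscle list: Klhl30, Klhl31, Klhl34, Klhl38, Klhl41, Asb16 and Kbtbd13. The leading transcript held over 50% of the gene in both libraries for 50 members, and for 48 when the same reads were quantified directly, without alignment. Of the 49 members with several transcripts, 42 had the same leading transcript in both libraries, and 38 had the same one by both quantifications. These shares are estimates of the quantifying programs. They were not taken over all protein-coding genes, so these counts do not show a trait particular to the members.

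Among the leading genes, Klhl40-201 held 98.6% of Klhl40 in replicate 1 and 99.1% in replicate 2, and Asb5-201 held 100% and 98.7% of Asb5. Asb2 is known to be made in a blood-cell form and a muscle form that start at different exons. Its most upstream start, at position 103356001 of chromosome 12, held 74.7% of the gene in replicate 1 and 77.9% in replicate 2, and a downstream start at 103338373 held 21.6% and 19.7%. In the quantification made directly from reads the upstream start held 97.1% in replicate 1 and 98.6% in replicate 2, and the downstream start was at 0 in both. The upstream start led in both libraries and both quantifications, while the use of the downstream one was seen in only 1 of the quantifications.

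Other members showed the same kind of difference. A downstream start of Asb8 held 26.9% in replicate 1 and 24.3% in replicate 2 from alignments, and 0 in both when quantified directly from reads. Asb12-202, which starts far upstream of the other transcript of Asb12, was at 0 from alignments and held 40.4% in replicate 1 and 41.9% in replicate 2 from reads. Klhl13 was spread over 6 starts, of which the most upstream held 39.2% in replicate 1 and 45.4% in replicate 2 from alignments, whereas Klhl13-204 led with 52.6% and 40% from reads. For Klhl24, the leading transcript from alignments was the short Klhl24-204 of 840 bases (50.3% and 54.2%), against 45.3% and 40.8% for the long Klhl24-201 of 8172 bases. From reads Klhl24-203 led with 41.1% in replicate 1 and 42.5% in replicate 2.

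**Figure D3:**
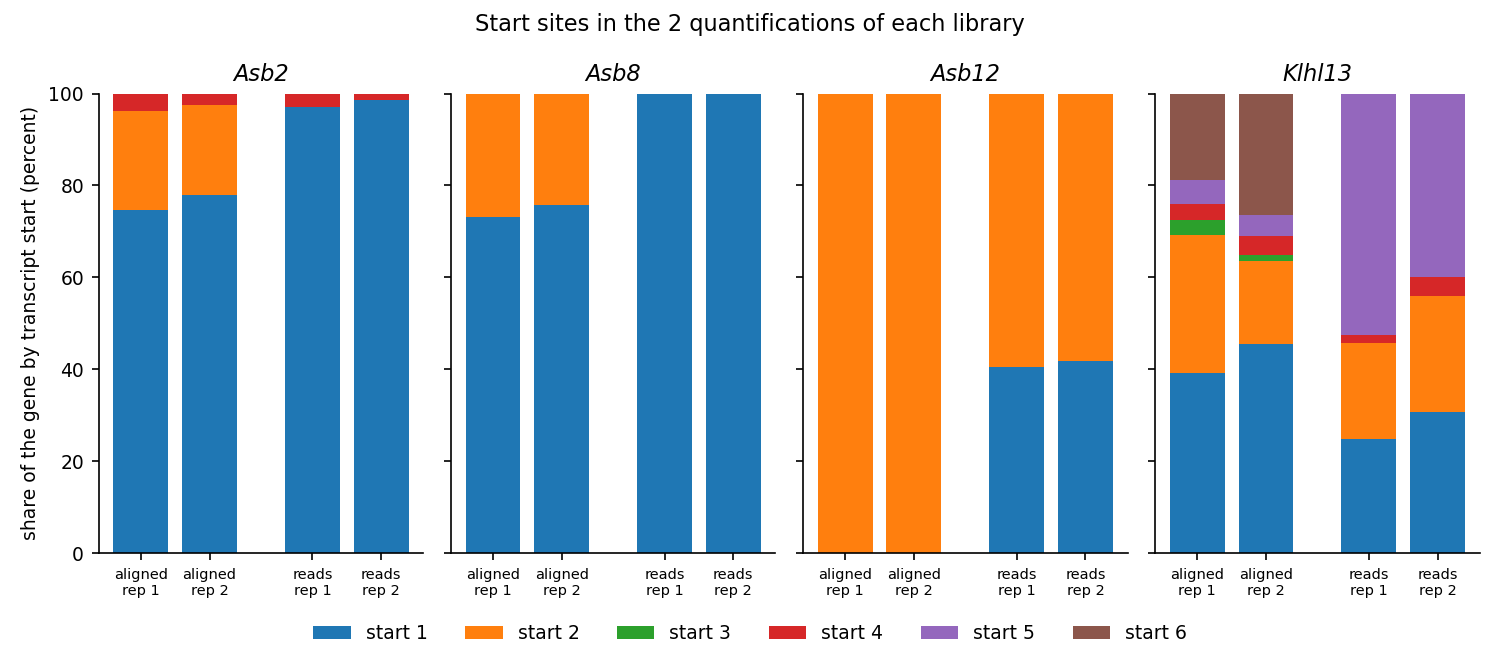
Share of each gene (percent of its TPM) by transcript start, numbered from the most upstream, for Asb2, Asb8, Asb12 and Klhl13, in replicate 1 and replicate 2 from the alignment-based tables (left bars) and from the tables made directly from reads (right bars). The second start of Asb2 held 21.6% and 19.7% from alignments and 0 in both libraries from reads.

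In the rest of the muscle list, Asb10-201 held 82.8% of Asb10 in replicate 1 and 91.8% in replicate 2, Klhl33-204 held 78.4% and 57.3% of Klhl33, Asb11-202 held 70.5% and 68.5% of Asb11, and Asb15-202 held 51.6% and 74.9% of Asb15. Kbtbd12 was led by Kbtbd12-203, annotated as a retained intron, at 47.5% in replicate 1 and 43.4% in replicate 2, and transcripts annotated as other than protein-coding made up 67.6% and 69.8% of the gene from alignments, against 33.7% and 36.3% from reads. There the protein-coding Kbtbd12-204, at 0 from alignments, led with 35.6% in replicate 1 and 36.3% in replicate 2. Asb14-201 had the highest mean share of Asb14, with 36.2% in replicate 1 and 19.4% in replicate 2, where Asb14-205, annotated for nonsense-mediated decay, held 23.6% and 28.5%. Transcripts not annotated as protein-coding held 53.0% of Asb14 in replicate 1 and 64.0% in replicate 2 from alignments, and 45.9% and 58.5% from reads. Asb18-204, annotated for nonsense-mediated decay, held 32.1% of Asb18 in replicate 1 and 48.3% in replicate 2 from alignments, where Asb18-201 held 44.6% and 34.1%. From reads, Asb18-204 was at 0 and Asb18-201 held 86.0% and 90.4%. Outside the list, transcripts not annotated as protein-coding held 100% of Asb6 in both libraries from alignments. The retained intron Asb6-205 held 37.7% of Asb6 in replicate 1 and 57.2% in replicate 2, and Asb6-202, annotated for nonsense-mediated decay, held 42.2% and 24.6%. From reads, the protein-coding transcript Asb6-201 held 8.27% and 11.3% of Asb6, in replicate 1 and replicate 2.

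Sequence before the start of these genes is shown because motif matches were spread unevenly between the muscle list and the other members. RefSeq promoter windows (GRCm38.p6, the mm10 assembly, from C57BL/6J, so the CAST allele is not shown) were available for 54 of the 63 members, 16 of them on the muscle list, and the window nearest to the start of the leading transcript was used. For 3 of them that window lies over 1000 bases from this start. Positions of matches are counted from the start next to the window, which can differ from the leading start. The 250 bases before the start were searched on both strands for the MEF2 site, for CAGCTG and CANNTG (E-boxes, bound by myogenic and many other factors; every CAGCTG is also a CANNTG), for TATAAA, for the CArG box bound by SRF and for CATTCC (the MCAT box). The last 100 bases before the start follow for the 6 members whose window holds a MEF2 site, 5′ to 3′ on the strand of the gene, with capitals marking any match to these motifs other than CANNTG.
Klhl41: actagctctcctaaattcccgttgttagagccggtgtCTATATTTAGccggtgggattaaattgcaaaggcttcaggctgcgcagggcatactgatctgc
Asb12: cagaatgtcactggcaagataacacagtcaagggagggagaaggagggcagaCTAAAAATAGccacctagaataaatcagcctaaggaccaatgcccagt
Kbtbd12: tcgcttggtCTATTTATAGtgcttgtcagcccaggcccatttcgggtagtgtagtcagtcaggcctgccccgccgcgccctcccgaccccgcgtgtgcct
Asb16: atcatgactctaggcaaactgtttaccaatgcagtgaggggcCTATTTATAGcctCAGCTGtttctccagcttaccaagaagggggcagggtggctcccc
Asb18: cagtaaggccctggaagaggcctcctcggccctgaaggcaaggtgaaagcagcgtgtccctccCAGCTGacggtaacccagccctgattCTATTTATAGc
Klhl33: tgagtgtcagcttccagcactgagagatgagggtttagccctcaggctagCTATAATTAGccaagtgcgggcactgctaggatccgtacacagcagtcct

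These windows are chr2:69670020-69670119 (plus strand) for Klhl41, chrX:95478130-95478229 (minus) for Asb12, chr6:88627430-88627529 (minus) for Kbtbd12, chr11:102268651-102268750 (plus) for Asb16, chr1:90014667-90014766 (minus) for Asb18 and chr14:50897484-50897583 (minus) for Klhl33. The MEF2 match ran from 63 to 54 bases before the start in Klhl41, from 48 to 39 in Asb12, from 91 to 82 in Kbtbd12, from 58 to 49 in Asb16, from 11 to 2 in Asb18 and from 50 to 41 in Klhl33. For Asb18 the positions count from the start of Asb18-202, which held 23.2% of the gene in replicate 1 and 17.5% in replicate 2. That start lies 89 bases upstream of the start shared by Asb18-201 and Asb18-204, which leads only by its mean share from alignments. Kbtbd12, Asb16 and Asb18 carried the same letters, CTATTTATAG. Klhl41 also held a CAGCTG further upstream, from 127 to 122 bases before its start. Asb16 had a CAGCTG 3 bases after its MEF2 site.

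Matches to the MEF2 site were found in 6 of 16 muscle-list windows (37.5%) and in 0 of 38 windows of the other members, against 0.466% of 16538 protein-coding windows. The CArG box was found in 2 of 16 windows of the list (12.5%), those of Asb2 and Asb5, and in 0 of 38 of the other members, against 1.35% of all. CAGCTG was found in 5 of 16 windows of the list (31.2%) and 7 of 38 of the other members (18.4%), against 11.8%, and CANNTG in 14 of 16 (87.5%) and 20 of 38 (52.6%), against 62.2%. TATAAA was found in 7 of 16 windows of the list (43.8%) and 1 of 38 of the other members (2.63%), against 11.9%. In Kbtbd12, Asb16 and Asb18 that match lies within the MEF2 site, and outside MEF2 sites TATAAA was found in 4 of 16 windows of the list (25%), against 11.8% of all. CATTCC was found in 1 of 16 windows of the list (6.25%) and 4 of 38 of the other members (10.5%), against 11.2%. A match is a stretch of letters and not a shown binding site, and no binding data were used.

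CpG pairs were few before most muscle-list genes. The median number in 250 bases was 3.5 for the list, 15.5 for the other members and 11 for all protein-coding windows. Counts ran from 0 to 27 in the list, with Kbtbd12 at 27, and from 1 to 42 in the other members, where Asb8 had 4. Under 5 CpG were found in 10 of 16 windows of the list (62.5%) and 7 of 38 of the other members (18.4%), against 32.3% of all. Further windows are shown for contrast. Those of Asb2 and Asb5 hold the CArG box and, in Asb5, TATAAA. That of Klhl40 has a CAGCTG close to the window's own start, which lies 84 bases upstream of the start of the leading Klhl40-201. That of Klhl9, a broadly expressed member, has 19 CpG.
Asb2: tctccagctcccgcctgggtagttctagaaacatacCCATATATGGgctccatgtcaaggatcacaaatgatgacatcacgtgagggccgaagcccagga
Asb5: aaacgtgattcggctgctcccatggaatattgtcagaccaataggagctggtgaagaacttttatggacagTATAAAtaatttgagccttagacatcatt
Klhl40: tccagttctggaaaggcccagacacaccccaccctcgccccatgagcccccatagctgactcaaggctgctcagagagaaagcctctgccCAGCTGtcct
Klhl9: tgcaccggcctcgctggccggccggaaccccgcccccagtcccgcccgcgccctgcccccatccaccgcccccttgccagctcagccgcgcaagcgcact

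The Asb2 window, chr12:103356002-103356101 on the minus strand, lies before the upstream start that held 74.7% and 77.9% of the gene. Its CArG box ran from 64 to 55 bases before the start. In Asb5 (chr8:54550231-54550330, plus strand) TATAAA ran from 29 to 24 bases before the start, and the CArG box lies outside the printed stretch, from 211 to 202. The windows of Klhl40 (chr9:121777507-121777606, plus strand) and Klhl9 (chr4:88722509-88722608, minus strand) held neither a MEF2 site nor a CArG box. Klhl40 and Asb8 were thus among the highest members without a MEF2 match in the 250 bases searched, and Klhl33 and Asb18 among the lower ones with it.

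**Figure D4:**
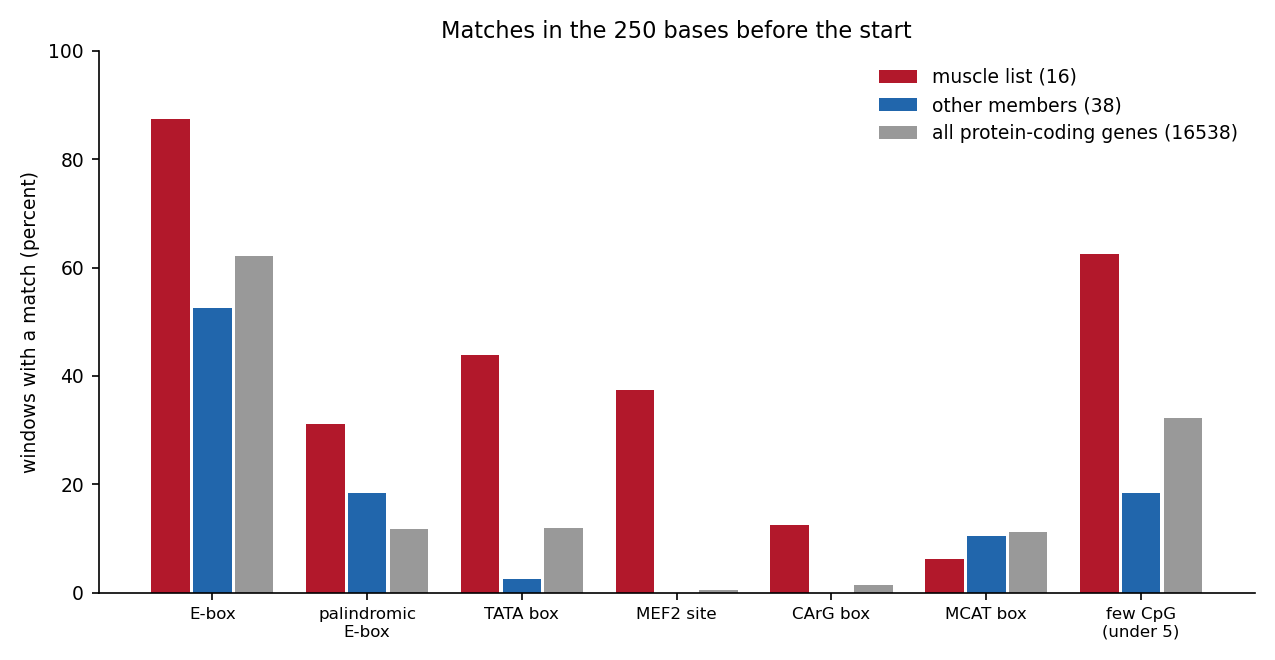
Percent of windows of 250 bases before the start with a match on either strand to each motif, and percent with under 5 CpG, for 16 muscle-list genes, 38 other members and 16538 protein-coding genes. The MEF2 site was found in 37.5% of muscle-list windows, in no window of the other members and in 0.466% of all windows.

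Most members differed little between the animals, and those past the limit used here were higher in replicate 1. Ratios of TMM-scaled expected counts were taken for the 59 members with a mean count of 10 or more. Of these, 4 (6.78%) were past 1.5-fold, against 10.9% of 14706 protein-coding genes. All 4 were higher in replicate 1, where 1.9% of protein-coding genes were past the limit, and 0 were higher in replicate 2, where 9% were.

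Klhl33 had 555 counts in replicate 1 and 242 in replicate 2, a log2 ratio of 1.11 with a 95% counting interval from 0.89 to 1.34. Asb14 had 280 counts in replicate 1 and 128 in replicate 2, a log2 ratio of 1.04 (interval 0.74 to 1.36). For both genes replicate 1 held over 2 times the scaled counts of replicate 2. Klhl38 had 295 and 183 counts, with a log2 ratio of 0.60 (0.34 to 0.88), and Klhl35, outside the list, had 26 and 16 counts with the same ratio but an interval that included 0 (from -0.34 to 1.61). Under total-count or ERCC scaling Klhl38 and Klhl35 stood at 0.56 or 0.52, below the 1.5-fold limit, while Klhl33 and Asb14 stayed past it under every scaling tried. Klhl38 shares 60.9% of its stretches of 75 bases with the overlapping antisense gene Gm15943, which had only 5 and 7 counts in replicate 1 and replicate 2.

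The 18 muscle-list members leaned towards replicate 1. All 18 had a log2 ratio above 0, with a median of 0.39 and a range from 0.02 to 1.11, but under total-count or ERCC scaling it was 17 of 18, Asb18 being the exception. Of the 41 other members 27 were above 0, with a median of 0.12, and of protein-coding genes 48.6% were, with a median of -0.01. The counting interval lay wholly above 0 for 14 of the 18 muscle-list members and 11 of the 41 other members, against 19.5% of protein-coding genes. The interval narrows with depth, and the median of the mean counts was 761 in the muscle list, 456 in the other members and 502 in protein-coding genes. Those above 0 included, on the muscle list, Klhl31, with 19017 and 12902 counts and a log2 ratio of 0.48 (0.44 to 0.51), Asb2, with 4488 and 3047 counts and also 0.48 (0.41 to 0.54), and Klhl41, with 0.24 (0.21 to 0.27), and outside it Klhl24, with 7897 and 5660 counts and 0.40 (0.35 to 0.45). The 6 skeletal muscle markers were all above 0 as well, with a median of 0.14 and a range from 0.10 to 0.26, and the epidermal and Schwann cell markers were all below 0, with medians of -9.59 and -1.06. The part of these tissues in the ratios of the members was not tested.

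**Figure D5:**
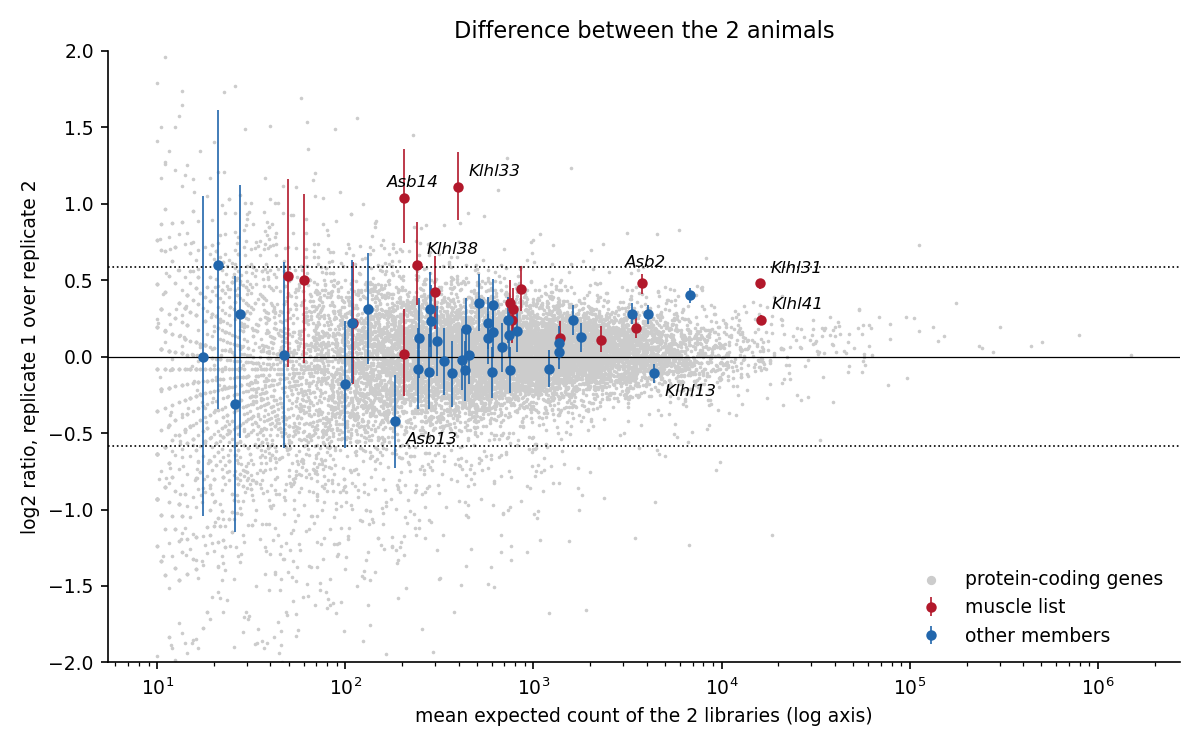
Log2 ratio of scaled expected counts, replicate 1 over replicate 2, against the mean count (log axis) for 59 members, with 95% counting intervals, over 14706 protein-coding genes in grey, of which 495 lie beyond the plotted range. Dotted lines mark 1.5-fold. All red points (muscle list) lie above 0, from 0.02 to 1.11, although Asb18 falls below 0 under total-count or ERCC scaling.

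Of the 59 members, 14 had a ratio below 0, and 0 of them were past 1.5-fold. The lowest ratio among the 51 members averaging at least 100 counts was that of Asb13, with 163 counts in replicate 1 and 206 in replicate 2, at -0.42 (interval -0.73 to -0.12). The next were Kbtbd11, Klhl13, Klhl29 and Klhl26, between -0.11 and -0.10. Asb13 and Klhl13 were the 2 members whose interval lay wholly below 0. Kbtbd11, with 365 and 373 counts, Klhl29, with 598 and 607, and Klhl26, with 277 and 280, had intervals that included 0. In all, 25 of 59 intervals lay above 0 and 2 below, and 32 included it, whereas 19.5% of the intervals of protein-coding genes lay above 0 and 21.1% below.

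TPM and counts did not always give the same order of the animals. For 6 of the 59 members, Klhl22, Kbtbd2, Kbtbd4, Asb7, Klhl2 and Asb18, TPM was lower in replicate 1 while the scaled count was higher there. Klhl2, an actin-binding adaptor, stood at 3.24 TPM (replicate 1) and 5.04 TPM (replicate 2), but had 317 and 255 counts. A short transcript of 321 bases, Klhl2-203, was at 0 in replicate 1 and held 49.5% of the gene in replicate 2, and the mean length assigned to the gene was 3439 bases in replicate 1 and 1957 bases in replicate 2. In the quantification made directly from reads that transcript was at 0 in both libraries, and Klhl2 stood at 5.08 TPM in replicate 1 and 4.35 in replicate 2. All 6 of these genes had the higher TPM in replicate 1 in the quantification made directly from reads.

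Some counts were also exposed to other genes at the same place. Of the 63 members, 26 overlap another annotated gene, and for 4 of them, all with counts of their own, a partner held over 10% of the counts of the member. Asb5, with 1483 and 1286 counts, overlaps Spcs3 on the opposite strand, which had 1510 counts in replicate 1 and 1425 in replicate 2, and Kbtbd4, with 476 and 396 counts, overlaps Ndufs3, which had 2782 and 2427. Whether counting used strand is not given in the sources used here. Values of members that share stretches with an overlapping gene are therefore uncertain. The leading transcript of Asb5 shares 0% of its stretches of 75 bases with transcripts of other genes. The leading transcript of Kbtbd4 shares 62.8% of its stretches of 75 bases with transcripts of other genes, 62.3% with those of Ptpmt1. Ptpmt1 also overlaps Kbtbd4 on the opposite strand, and had 712 counts in replicate 1 and 612 in replicate 2. The leading transcript of Kbtbd6 shares 22.4% with Kbtbd7. For 46 members no stretch of the leading transcript occurs in the transcripts of another gene, and the other transcripts of the members were not searched.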

How the data were processed

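The 2 total RNA libraries form 1 group. The alignment-based gene and transcript tables deposited by the authors give expected counts and TPM, with RSEM-style column names per the file headers, and the deposited transcript tables add each transcript's percent of its gene. A further deposited transcript table, made directly from reads per the notes deposited with each library, has kallisto-style columns of estimated counts and TPM. Genome build mm10 and annotation GENCODE M21 are stated in those notes; which aligner and program versions were run is not stated there. Entries that name no gene took 0.000152% of replicate 1 counts and 0.000172% of replicate 2 counts and were left out, like the ERCC controls (0.65% and 0.635%).

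Ratios are replicate 1 over replicate 2 of expected counts plus a prior count of 0.5, scaled by TMM (edgeR 4.0.16, R 4.3.3) on rounded counts, where the mean count was at least 10. Called means past 1.5-fold. The split of counts between the libraries has an exact 95% interval (Clopper-Pearson); with reads not marked by molecular identifiers, it and the limit of 3 counts cover counting error only. The ratio step was tried on simulated counts with counting error only and changes planted equally in both directions. That trial does not cover spread between animals or lopsided changes. The difference between list medians used log2(TPM + 0.1), which understates differences of low genes. Members and lists were chosen with earlier results of these data known. Named genes were the muscle list, the 25 members of highest mean TPM, members at 0, the 5 largest ratios each way at a mean count of 100 or more, and up to 4 leading genes and every cullin of each further list. Protein sequences were not used here. With 1 library per animal, a difference between libraries may come from the animal, the dissection or the library.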

Additional observations from a re-analysis of the deposited data

How the results depend on the processing

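The number of members at 1 TPM or more in both libraries, 52, stayed between 49 and 56 under the alternatives tried: the quantification made directly from reads, either library alone (52 without replicate 1 and 53 without replicate 2), rescaling over protein-coding genes, and limits of 0.5 and 2 TPM. The log2 difference between muscle-list and other members, 1.28, kept its direction. It was 1.42 from the quantification made directly from reads, 1.14 with a pseudocount of 1, 1.01 over members at 1 TPM or more on average and 0.83 without division by length, and ran from 1.22 to 1.35 with either library left out. The 4 members past 1.5-fold became 2 under total-count scaling, 2 under ERCC scaling and 2 at a limit of 2-fold, and stayed between 3 and 6 otherwise. Against the main scaling, ERCC scaling lowers every ratio, so that the median of protein-coding genes moved to -0.09 and 33.8% of them stood above 0, and 40 of 59 members did so, against 45. Total counts gave 40.5% of protein-coding genes and 41 members, and DESeq2 size factors (version 1.42.0) 53.4% and 47 members. For 7 members, Kbtbd2, Klhl15, Klhl18, Klhl42, Asb18, Kbtbd8 and Klhl32, the sign depended on the scaling, with no ratio beyond 0.10 in size. The leading transcript held over 50% in 48 to 54 members, and 71 of 72 ligase, adaptor and target genes stayed at 1 TPM or more. TPM of members from reads was a median of 1.53 times that from alignments, and that of protein-coding genes 1.61 times; the cause was not tested. No paired analysis was possible because there is 1 group. A count of muscle-list members above 0 under each setting was added after seeing the data. Depth limits the members under a mean count of 10 (4 of 63).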
